A study of Mus musculus with 21 samples.

Results

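Levels of 6 genes that are used as surface markers of activated and memory CD8 T cells, Cd44, Ly6a, Ly6c1, Ly6c2, Ly6e and Cd7, were examined in 21 single-cell RNA libraries. The genes were taken by name, and all 6 were among the 17516 gene symbols of every table. The cells were CD8 T cells of OT1 mice, which carry a transgenic T cell receptor for a peptide of ovalbumin. Each of 21 conditions had 1 library, so no difference between conditions could be tested against the spread between replicates.

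Naive OT1 cells without treatment made up the day 0 library. All other cells had been activated with beads coated with antibodies to CD3 and CD28. Beads without added cytokine gave 1 library on day 3 and 1 on day 5. Beads with wild type IL-2, with IL-2v (labelled as a mutant, IL-2bg) or with IL-15, each at 5 or 50 IU/mL, gave libraries on days 3, 5 and 10. For libraries whose titles give 50 IU/mL of IL-2, the treatment label reads interleukin-3, and where titles give 50 IU/mL of IL-15 it reads interleukin-16. Titles were followed here. The extraction text describes a sort of tumour T cells positive for CD44, whereas the growth text describes culture. If that sort was also used here, cells with little CD44 protein would be missing, which was not tested. The number of mice is not given in the labels.

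CD44 is an adhesion receptor that binds hyaluronan. It is kept at a raised level on T cells that have met antigen, and naive cells carry less of it. The LY6 proteins are small proteins held in the outer membrane by a glycosylphosphatidylinositol (GPI) anchor. Ly6a encodes Sca-1, and the Ly6c1 and Ly6c2 proteins together carry the Ly-6C epitope stained on memory CD8 T cells. Ly6e, like Ly6a and Ly6c2, is known as a gene induced by interferons. CD7 is an immunoglobulin family receptor of T and natural killer cells, and galectin-1 is among its ligands.

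On the GRCm38 assembly, in GENCODE annotation, 4 of the 6 genes lay in the Ly6 cluster on chromosome 15. Ly6e (chr15:74955051-74959905, plus strand) was followed by Ly6a (chr15:74994877-74998031), Ly6c1 (chr15:75044018-75048830) and Ly6c2 (chr15:75108158-75111970), all 3 on the minus strand. Cd44 lay at chr2:102811141-102901665 and Cd7 at chr11:121036747-121039418, both on the minus strand. The Cd7 exons share 122 bases, 10.8% of their length, with the antisense gene Gm11775. Whether counting used strand is not given in the sources used here, so reads of Cd7 and Gm11775 may not be separable in that stretch.

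Ly6c1 and Ly6c2 are near copies. Of the 90-base runs in Ly6c2 transcripts, 17.3% also occur in Ly6c1 transcripts, so the split of reads between these 2 genes is uncertain. RefSeq promoter windows (GRCm38.p6) were matched for 3 of the 6 genes, Cd44, Ly6c1 and Ly6c2. Those of Ly6c1 and Ly6c2 are shown because the 2 genes are near copies with very different counts in these cells. Each is the 250 bases before the start, read 5′ to 3′ on the minus strand, from chr15:75048838-75049087 for Ly6c1 and chr15:75111972-75112221 for Ly6c2, and capitals mark the longest run that both share.
Ly6c1: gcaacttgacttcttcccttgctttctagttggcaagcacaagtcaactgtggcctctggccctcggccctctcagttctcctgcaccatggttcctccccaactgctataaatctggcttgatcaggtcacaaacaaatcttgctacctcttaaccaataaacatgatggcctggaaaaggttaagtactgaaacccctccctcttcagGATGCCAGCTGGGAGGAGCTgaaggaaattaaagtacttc
Ly6c2: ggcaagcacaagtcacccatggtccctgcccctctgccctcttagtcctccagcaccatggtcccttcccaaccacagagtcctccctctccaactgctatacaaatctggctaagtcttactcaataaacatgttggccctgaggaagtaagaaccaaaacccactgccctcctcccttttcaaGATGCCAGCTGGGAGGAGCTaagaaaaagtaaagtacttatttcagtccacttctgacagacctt
Aligned over 233 columns, the 2 windows held 170 identical bases (73.0%), and the shared run was 20 bases long. A search on both strands for the STAT site TTCNNNGAA, the shared letters GAAANNGAA of the interferon-stimulated response element and the T-box site AGGTGTGA found no match in the windows of Ly6c1, Ly6c2 or Cd44. These letters occur in 7.02%, 7.13% and 1.12% of the 32851 windows of that length in the table. The RUNX letters TGTGGT occurred once in the Ly6c2 window (14.1% of all windows hold them).

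The libraries held 3250 to 7105 cells and 10589950 to 32648496 unique molecular identifiers (UMIs, tags that each mark 1 captured RNA molecule), with medians of 3016 to 5065 UMIs per cell. UMIs were summed over the cells of a library and scaled to the same total in every library (counts per 1000000 UMIs, CPM). Intervals in brackets are exact Poisson 95% intervals of the count and cover counting error only. Any pair of libraries shared at most 0.34% of the smaller library's cell barcodes. Cd3d, a chain of the T cell receptor complex, had a UMI in 93.0 to 99.5% of cells of every library. The B cell gene Ms4a1, the myeloid gene Lyz2 and the natural killer gene Ncr1 had a UMI in at most 0.126% of cells. Other genes of those marker lists were found more often, among them the B cell gene Cd79b in 0.727 to 7.45% of cells and the myeloid genes Cd68 in up to 7.39% and Itgam in up to 1.66%. The summed level of the 6 myeloid genes found in the tables ran from 63.7 CPM in naive cells to 130.4 CPM, most of it from Cst3, which had a UMI in 20.7 to 41.3% of cells. Klrb1c, a natural killer gene, reached 13.0% of cells on day 10 where IL-2v was given at 50 IU/mL, and 8.71% where IL-2 was. The part of B cell and myeloid markers in the results was tested only by leaving out cells with at least 2 markers. These were counted over the B cell, myeloid and red blood cell lists. Cells that had a Cd4 UMI but no Cd8 UMI were dropped as well. Leaving these cells out turned the sign of no called difference. It ended the Ly6c2 call between day 3 and day 5 (0.99) and made a Cd7 call between IL-2v and IL-2 (-1.44). Natural killer genes were not counted in that filter, so the part of cells with Klrb1c was not tested.

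Cd44 was low in naive cells, at 25.1 CPM (22.8 to 27.5). On day 3, the 7 activated libraries lay close together between 57.4 and 63.6 CPM, with or without cytokine. On day 5 they had moved apart. Cd44 was at 24.1 CPM without cytokine, 32.8 with 5 IU/mL IL-15, 52.0 with 5 IU/mL IL-2, 60.2 with 50 IU/mL IL-15 and 66.4 with 5 IU/mL IL-2v. The highest values were 92.0 CPM for IL-2 and 95.03 CPM for IL-2v, both at 50 IU/mL. On day 10, IL-15 gave 11.6 CPM (10.2 to 13.0) at 5 IU/mL and 42.1 at 50 IU/mL, below the 4 IL-2 and IL-2v libraries at 67.5 to 89.7 CPM. The 5 IU/mL IL-15 library of day 10 was thus below naive cells. The level without cytokine on day 5 could not be told from that of the whole naive library within counting error. Of the 20 neighbouring pairs in the order of Cd44 levels, 15 had overlapping intervals.

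Ly6a stood at 111 CPM in naive cells (107 to 116) and between 199 and 1277 CPM in all 20 activated libraries. On day 3 it was at 714 CPM without cytokine. It lay between 698 and 854 CPM in 5 of the 6 cytokine libraries and at 331 CPM with 50 IU/mL IL-2. On day 5 it was at 1042 CPM without cytokine, 755 with 5 IU/mL IL-2, 666 with 5 IU/mL IL-15 and 594 with 50 IU/mL IL-15. It was lower with 50 IU/mL IL-2v (503 CPM), 5 IU/mL IL-2v (419) and 50 IU/mL IL-2 (398). On day 10, the 50 IU/mL IL-2 library that had been among the lower ones held 1277 CPM (1264 to 1291), above the other 20 libraries. IL-2 at 5 IU/mL gave 752 CPM on that day, IL-15 at 5 IU/mL 621, and IL-2v 614 at 50 and 330.0 at 5 IU/mL. IL-15 at 50 IU/mL gave 199 CPM.

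Ly6e was the steadiest of the 6 genes, with 2.39-fold between its highest and lowest library. Naive cells held 563 CPM. On day 3 it was at 802 CPM without cytokine, at 910.1 CPM in the IL-15 library of 5 IU/mL and 862 in that of 50 IU/mL. IL-2 gave 771 CPM at the lower and 468 at the higher dose, and IL-2v 750.4 and 635. On day 5 it was at 1039 CPM without cytokine, 912 and 674 with IL-15, 761 and 511 with IL-2, and 654 and 606 with IL-2v, at 5 and 50 IU/mL in turn. On day 10 the values in the same order were 644 and 435 CPM with IL-15, 724 and 641 with IL-2, and 833 and 675 with IL-2v. The cells without cytokine on day 5 were the highest of the 21 libraries, and the day 10 cells given IL-15 at 50 IU/mL were the lowest.

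Ly6c2 stood at 205.2 CPM in naive cells. On day 3, 50 IU/mL IL-2 gave 65.8 CPM (61.9 to 69.8), below the 145 CPM of cells without cytokine. IL-2 at 5 IU/mL gave 149.9 CPM, IL-2v 199 and 257 at 5 and 50 IU/mL, and IL-15 208 and 269.7. On day 5 it was at 434 CPM without cytokine, and the lower and the higher dose gave 569 and 434 CPM for IL-15. IL-2v gave 379 CPM at 5 IU/mL and 316 at 50 IU/mL, and IL-2 gave 321 and 155. On day 10 it reached 771.5 CPM with 5 IU/mL IL-2v and 1001 CPM (989.6 to 1013) with 50 IU/mL IL-2v. IL-2 gave 668 and 549.6 CPM at 5 and 50 IU/mL on that day, and IL-15 369.8 and 495.

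Ly6c1 was counted at 15.8 CPM in naive cells (14.1 to 17.7) and at 0.471 to 5.63 CPM in the 20 activated libraries. It never reached the 20 CPM needed to enter a comparison, so 5 of the 6 genes entered each one. In the naive library a Ly6c1 UMI was found in 0.965% of cells with a Ly6c2 UMI (8 cells) and in 2.94% of cells without one. The split of reads between these 2 genes is uncertain, and its part in these shares was not tested.

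Cd7 covered a 36.0-fold range. Naive cells held 122 CPM. On day 3 it was at 78.6 CPM without cytokine, 77.5 with 5 IU/mL IL-2, 81.6 with 5 IU/mL IL-15 and 69.3 with 50 IU/mL IL-15. IL-2v gave 43.1 CPM at 5 IU/mL, 50 IU/mL IL-2 gave 21.4 and 50 IU/mL IL-2v 6.35 (5.38 to 7.45). On day 5 it was at 182 CPM without cytokine. IL-2 gave 212 CPM at the lower and 64.9 at the higher dose, IL-2v 85.0 and 19.8, and IL-15 123 and 129. On day 10, 50 IU/mL of IL-2 and of IL-2v both gave about the same low level, 5.90 and 6.08 CPM. Cd7 stood at 212 CPM with 5 IU/mL IL-2, 71.2 with 5 IU/mL IL-2v, 133 with 5 IU/mL IL-15 and 169.7 with 50 IU/mL IL-15.

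**Figure D1:**
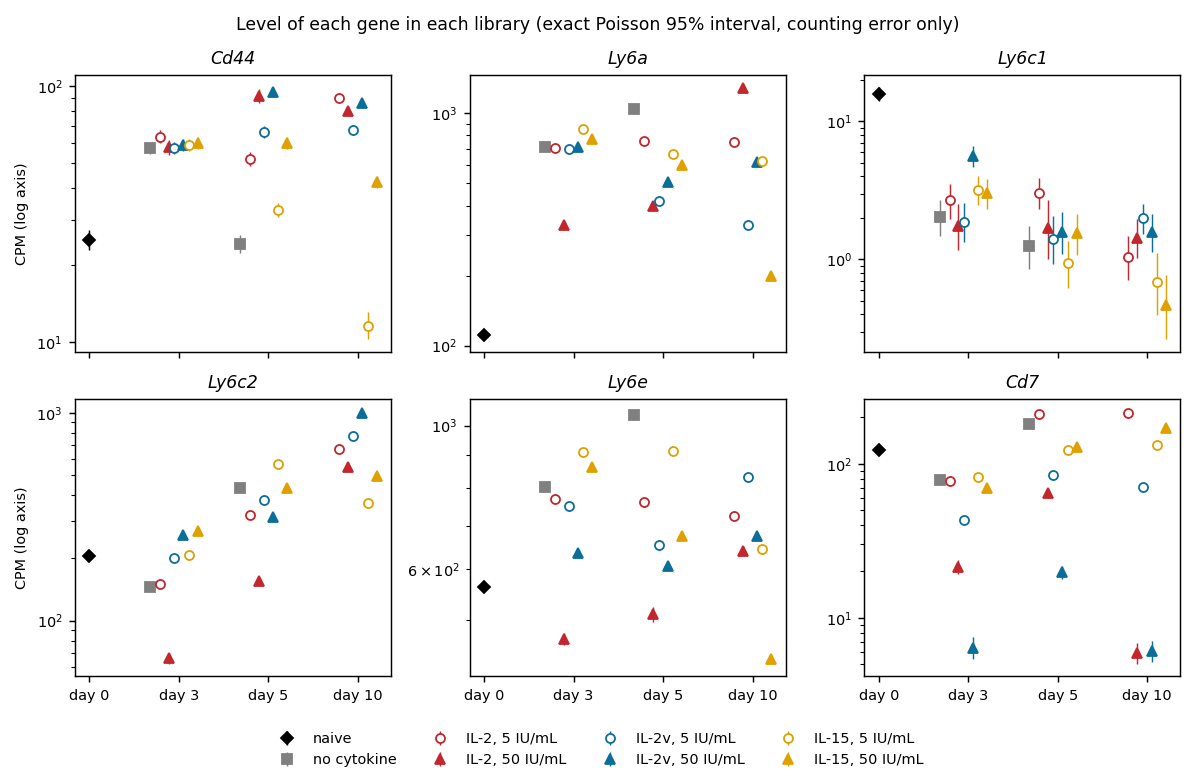
CPM of each gene (log axis) against day, 1 point per library with its exact Poisson 95% interval, where open circles are 5 IU/mL, filled triangles 50 IU/mL, squares no cytokine and the diamond naive cells. The 7 Cd44 points of day 3 lie together between 57.4 and 63.6 CPM and spread out afterwards, and Cd7 is at 5.90 to 64.9 CPM in the 6 libraries with 50 IU/mL IL-2 or IL-2v. The library with 5 IU/mL IL-2v on day 3 (43.1 CPM) also lies in that Cd7 range.

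Shares of cells with at least 1 UMI were taken after cells had been thinned at random to 2000 UMIs, so that depth was equal, and the 57 to 393 cells per library with fewer UMIs were left out. Ly6e had a UMI in 54.9 to 84.4% of cells and Ly6a in 14.4% (naive) to 86.8% (50 IU/mL IL-2, day 10). Ly6c2 ranged from 8.49% with 50 IU/mL IL-2 on day 3 to 69.9% with 50 IU/mL IL-2v on day 10. Cd7 ranged from 1.13% (50 IU/mL IL-2, day 10) to 31.8% (5 IU/mL IL-2, day 5), and Cd44 from 1.97% (5 IU/mL IL-15, day 10) to 17.0%. The tables hold T cells almost alone, so no cell type that should lack these genes was at hand to measure the share given by free RNA. The Ly6c1 shares of 0.0777 to 2.57% were in the range where that share would matter, and Cd7 shares near 1% likewise.

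**Figure D2:**
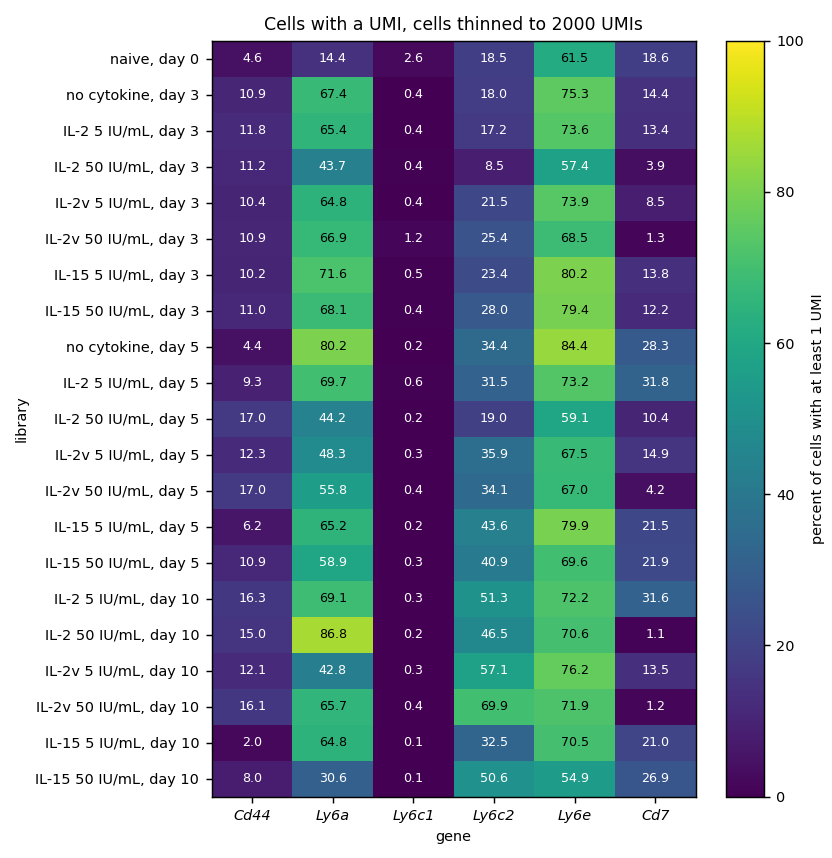
Percent of cells with at least 1 UMI of each gene (columns) in each of the 21 libraries (rows), in cells thinned to 2000 UMIs, with the value printed in each field and coloured from 0 to 100%. The Ly6a column runs from 14.4% in naive cells to 86.8%, and the Cd7 column drops to 1.1 to 10.4% in the 6 libraries with 50 IU/mL IL-2 or IL-2v. The library with 5 IU/mL IL-2v on day 3 also lies in that Cd7 range.

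The first comparison asked how bead activation without cytokine differed from the naive state. Differences are given in log2(CPM + 1), which understates the change of low genes, and a gene was called past 2-fold where the difference was at least 1 in size. Ly6a was higher on day 3 than in naive cells by 2.67 and Cd44 by 1.17, so 2 of the 5 genes were past 2-fold upward, where 11.1% of 6171 genes were upward and 19.4% in either direction. Ly6e was 0.51 higher, while Ly6c2 and Cd7 were at -0.50 and -0.63, and none of the 5 was past 2-fold downward (8.31% of genes). Ly6c1, under the level for a call, stood at 15.8 CPM in naive cells and 2.02 CPM on day 3, a difference of -2.48. With a pseudocount of 10 CPM the Cd44 difference was 0.94, short of 2-fold.

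The naive library held a minority of cells with a UMI of Ccl5, a chemokine of memory CD8 T cells. In those 569 cells Ly6c2 was at 787 CPM and Cd44 at 89.2 CPM, 6.46-fold and 5.61-fold above the 4208 other cells, while Ly6c1 was at 6.49 against 17.1 CPM. The other cells held 122 CPM of Ly6c2 (117 to 127) and 15.9 CPM of Cd44 (14.0 to 18.0). Without cytokine, Ly6c2 on day 3 (145 CPM) and Cd44 on day 5 (24.1 CPM) were above these levels. Comparisons with naive cells used the whole naive library, and the part of the Ccl5 cells in them was not tested.

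Between day 3 and day 5 without cytokine, 3 members passed 2-fold. Ly6c2 was higher on day 5 by 1.58 and Cd7 by 1.204, where 3.61% of 5785 genes were past 2-fold upward, and Cd44 was lower, at -1.22, where 9.47% were (13.1% in either direction). Ly6a and Ly6e were 0.54 and 0.37 higher. The share of cells with a UMI of Mki67 or Top2a, which are genes of dividing cells, was 59.96% on day 3 and 13.8% on day 5. In cells without such a UMI the Cd7 difference was 0.59, short of 2-fold. With a pseudocount of 10 CPM that of Cd44 was -0.98.

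Libraries with a cytokine were next set beside the cytokine-free library of their day. Each set of 6 differences shares 1 control library, so they are not independent of each other. On day 3, Cd44 differed from its control by no more than 0.14 in any of the 6 libraries. At 50 IU/mL, Cd7 was at -3.44 for IL-2v and at -1.83 for IL-2. With 50 IU/mL IL-2, Ly6a was at -1.11, Ly6c2 at -1.13 and Ly6e at -0.78, whereas at the same dose Ly6c2 was at 0.82 for IL-2v and at 0.89 for IL-15. On day 5, Cd44 was higher than its control in all 6 libraries, by 0.43 (5 IU/mL IL-15) to 1.93 (50 IU/mL IL-2v). Ly6a and Ly6e were lower than theirs in all 6, and Ly6a lay between -0.46 and -1.38. On that day Cd7 was at -3.14 for IL-2v at 50 IU/mL, -1.09 for IL-2v at 5 IU/mL and -1.48 for IL-2 at 50 IU/mL, and between -0.57 and 0.22 in the other 3 libraries. With 50 IU/mL IL-2 on day 5, Ly6c2 was also at -1.48 and Ly6e at -1.02.

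Doses were compared within each cytokine at the same day, in 3 pairs of libraries. A gene was called consistent where all pairs had the same sign and the median difference was at least 1 in size. With IL-2, Cd7 and Ly6c2 were consistently lower at 50 than at 5 IU/mL, 2 of the 5 members, where 2.70% of 5879 genes were lower and 6.99% differed in either direction. Cd7 differed by -1.81 on day 3, -1.69 on day 5 and -4.95 on day 10. Ly6c2 differed by -1.18, -1.04 and -0.28. The Ly6c2 call was lost without day 3 (-0.66), without day 5 (-0.73) and in cells without a UMI of Mki67 or Top2a (-0.77), and under TMM scaling because its day 10 difference turned positive. Ly6a was lower at 50 IU/mL IL-2 on days 3 and 5, at -1.10 and -0.92, and higher on day 10, at 0.76. Without day 10 it was past the threshold, with a median of -1.01.

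With IL-2v, Cd7 was again consistently lower at 50 IU/mL, 1 of the 5 members (0.626% of 5913 genes were consistently lower, 3.01% either way). Cd7 entered this comparison only through the 5 IU/mL libraries (a mean of 66.5 CPM, against 10.7 at 50 IU/mL). The call is therefore not read further. Its differences were -2.59, -2.05 and -3.35 on days 3, 5 and 10. With IL-15 no member was consistent in either direction, where 1.05% of 5523 genes were. Its Cd7 differences were -0.23, 0.07 and 0.35. Cd44 was higher at 50 IU/mL IL-15 on all 3 days, by 0.03, 0.86 and 1.78. Without day 3 it was past the threshold, with a median of 1.32. The sign of the IL-15 Cd44 difference of day 3 turned under TMM scaling.

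The Cd7 dose difference of IL-2 was also present in cells without a UMI of Mki67 or Top2a, with a median of -1.66. The share of cells with such a UMI was 62.8, 18.7 and 18.2% at 5 IU/mL IL-2 on days 3, 5 and 10 and 73.8, 50.4 and 13.4% at 50 IU/mL. With IL-2v it was 66.2, 39.8 and 40.6% at 5 IU/mL and 86.9, 66.7 and 25.0% at 50 IU/mL. Ly6e was lower at 50 than at 5 IU/mL in all 9 pairs of the 3 cytokines, with differences of -0.08 to -0.72, short of 2-fold in each. Under TMM scaling it was lower in 8 of the 9.

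**Figure D3:**
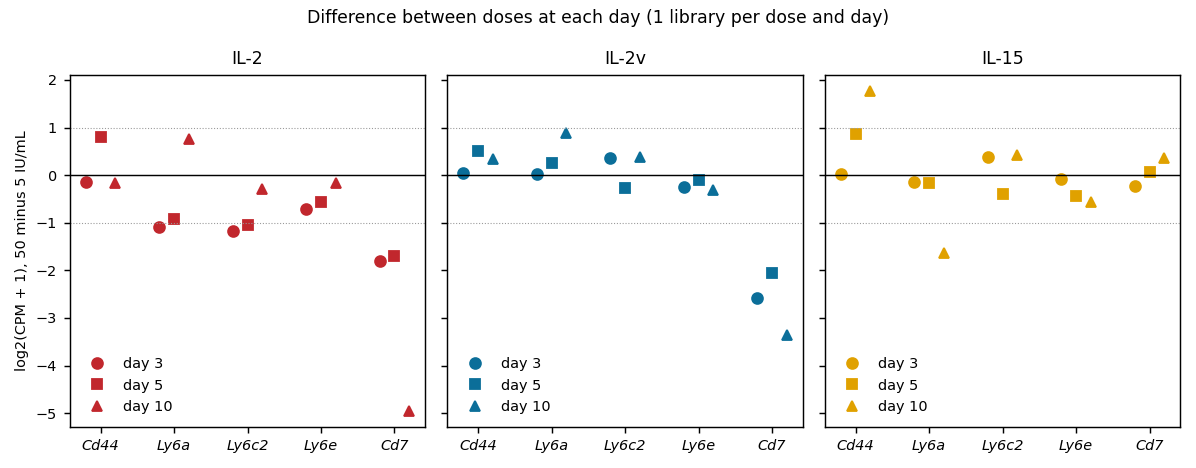
Difference in log2(CPM + 1) between 50 and 5 IU/mL for 5 genes, in 1 panel per cytokine, with 1 point per day and dotted lines at 2-fold. Cd7 lies at -1.69 to -4.95 in the IL-2 panel, at -2.05 to -3.35 in the IL-2v panel and near 0 in the IL-15 panel.

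For each 2 cytokines, the 6 libraries of one were paired with those of the other by day and dose. Between IL-2v and IL-2 no member was consistent, where 1.32% of 5839 genes were. Ly6c2 was higher with IL-2v in all 6 pairs, by 0.21 to 1.95 with a median of 0.64, and the 3 larger differences were those at 50 IU/mL. Cd7 was lower with IL-2v in 5 of 6 pairs with a median of -1.44, from -1.66 to 0.04, where the exception was the pair of day 10 at 50 IU/mL in which both libraries were near 6 CPM. Without day 10 the Cd7 difference was consistent, at -1.46, and it also was under 4 other settings that changed the sign of that last pair. Cd44 differed by -0.40 to 0.35. Ly6a was higher with IL-2v at 50 IU/mL on day 3 by 1.11 and lower on day 10 at both doses, at -1.19 and -1.06.

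Between IL-15 and IL-2 no member was consistent either, where 2.19% of 5718 genes were. The differences turned with dose and day. Cd7 was higher with IL-15 at 50 IU/mL, by 1.65, 0.99 and 4.63 on days 3, 5 and 10, and at 5 IU/mL it was at 0.07, -0.78 and -0.67. Ly6c2 was higher with IL-15 on days 3 and 5, by 0.47 to 2.02, and lower on day 10, at -0.85 and -0.15. Without day 10 its median was 1.15, past the threshold. Cd44 was lower with IL-15 in 5 of 6 pairs, from -0.11 to -2.85 in those pairs, and at 0.06 in the 50 IU/mL pair of day 3. Ly6a was lower with IL-15 at 50 IU/mL on day 10, at -2.68.

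Between IL-2v and IL-15, Cd7 was lower with IL-2v in all 6 pairs with a median of -1.78, the only one of the 5 members to be consistent. Of 5810 genes, 0.585% were consistently lower and 3.06% differed either way. At 5 IU/mL the differences were -0.90, -0.53 and -0.89, and at 50 IU/mL they were -3.26, -2.65 and -4.59. In cells without a UMI of Mki67 or Top2a the median was -1.35. Cd44 was higher with IL-2v in the 4 pairs of days 5 and 10, by 0.65 to 2.44, and at -0.03 and -0.02 on day 3. Without day 3 its median was 1.002, past the threshold. Ly6c2 was higher with IL-2v on day 10 by 1.06 and 1.01, and at -0.06 to -0.58 on days 3 and 5.

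**Figure D4:**
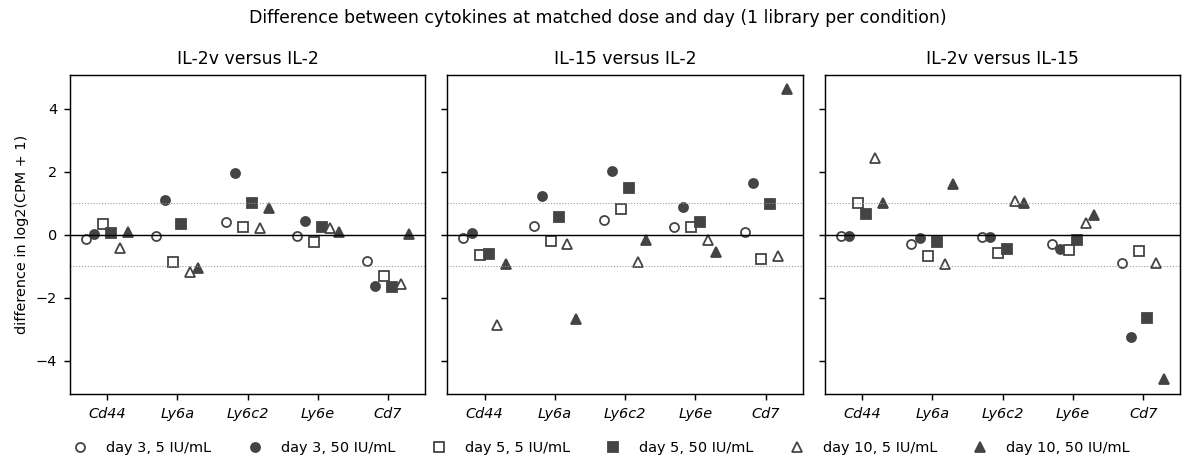
Difference in log2(CPM + 1) between cytokines at the same day and dose for 5 genes, with open symbols for 5 IU/mL, filled symbols for 50 IU/mL and dotted lines at 2-fold. All 6 Cd7 points of IL-2v against IL-15 lie below 0, and all 6 Ly6c2 points of IL-2v against IL-2 lie above it.

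Days were compared within each cytokine and dose, again in 6 pairs. From day 3 to day 5, Cd7 and Ly6c2 were consistently higher, 2 of the 5 members, where 0.829% of 5912 genes were consistently higher and 3.04% differed either way. Cd7 was higher by 0.58 to 1.55 with a median of 1.202, and Ly6c2 by 0.30 to 1.45 with a median of 1.01. Both calls were lost without IL-2 (medians of 0.93 and 0.80), with a pseudocount of 10 CPM (0.85 and 0.97) and in cells without a UMI of Mki67 or Top2a (0.58 and 0.66). The Ly6c2 call was also lost without cells with markers of other lineages (0.99), without cells above 2 times the median UMIs (0.93) and with the mean CPM of single cells (0.87). Cd44, Ly6a and Ly6e had medians of 0.11, -0.37 and -0.04.

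From day 5 to day 10 no member was consistent, where 1.69% of 5676 genes were. Ly6c2 was higher on day 10 in 5 of 6 pairs with a median of 1.04, by 1.02 to 1.82 with IL-2 and IL-2v, and at -0.62 and 0.19 with 5 and 50 IU/mL IL-15. Without IL-15 its median was 1.36, past the threshold. Cd7 was lower on day 10 with 50 IU/mL IL-2, at -3.25, and with 50 IU/mL IL-2v, at -1.55, and differed by -0.25 to 0.39 in the other 4 pairs. Ly6a was higher by 1.68 with 50 IU/mL IL-2 and at -1.58 with 50 IU/mL IL-15.

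Within each library, cells with a UMI of Mki67 or Top2a were set against the other cells. Cd7 was lower in the dividing cells of 20 of 21 libraries, with a median difference of -0.95. In 1 of these 20, day 10 with 5 IU/mL IL-15, the levels were nearly equal, at 132.5 and 132.7 CPM (-0.002). Ly6e was higher in the dividing cells of 20 of 21 libraries (median 0.28) and Cd44 in 19 of 21 (median 0.14). Ly6a and Ly6c2 were higher in 11 of 21 each, with medians of 0.01 and 0.03. The naive library stood apart for Cd44, Ly6a and Cd7, which were higher in its dividing cells by 1.32, 1.39 and 0.96. Only 3.01% of naive cells had such a UMI.

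**Figure D5:**
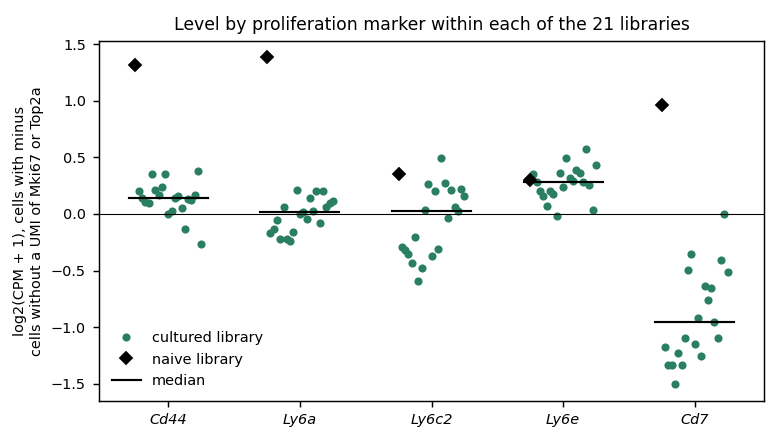
Difference in log2(CPM + 1) between cells with and without a UMI of Mki67 or Top2a, with 1 point per library, a diamond for the naive library and a bar at the median of 21 libraries. The Cd7 points lie below 0 in 20 libraries, 1 of them only just (-0.002), and the Ly6e points lie above 0 in 20.

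The genes most like each member over the 21 libraries, up to 3 for each, were ranked by Pearson's r of log2(CPM + 1) among the 5495 genes that averaged 20 CPM or more. The libraries share stimulus, days and 1 naive and 2 cytokine-free samples, and these r are descriptions. Cd44 was followed most closely by Anxa2 (r = 0.97), Atp8b4 (0.96) and Sytl2 (0.93). Cd7 had Bin2 (0.95) and Mxd4 (0.92). Ly6c2 had Ifi27 (0.87) and Efhd2 (0.84), Ly6a had Tmbim4 (0.88), Vmp1 (0.85) and Plaat3 (0.84), and Ly6e had Dnajc15 (0.85), Gimap4 (0.75) and Cd52 (0.75). Among the members themselves, Ly6a and Ly6e had r = 0.63 and Cd44 and Cd7 had r = -0.45.

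Other listed genes of the LY6 family were not among the gene symbols or stayed under the 20 CPM needed for a comparison, with 1 exception. Of a list of 30 further family members, 12 were in the tables and only Ly6g, known as a surface marker of neutrophils, reached 20 CPM in any comparison. Ly6g was at 152 CPM (148 to 157) on day 10 with 50 IU/mL IL-2, the library in which Ly6a was at 1277 CPM. It was at most 1.10 CPM in each of the other 20 libraries, and no UMI was counted in 15 of them. After thinning, 686 of 4693 cells of that library had a Ly6g UMI, 14.6% (exact binomial 95% interval 13.6 to 15.7%). Cd3d had a UMI in 91.1% of the Ly6g cells and in 89.2% of the others, and Cd8b1 in 29.2 and 28.7%. The myeloid gene Lyz2 was at 0 in both, and Cd68, which had a UMI in 7.39% of the unthinned cells of that library, was found in 3.21 and 2.85%. Itgam, a myeloid integrin gene that neutrophils also carry, had a UMI in 0.437% of the Ly6g cells and 0.0499% of the others, and Cd14 in 0 and 0.150%. Ly6a had a UMI in 91.7% of the Ly6g cells (89.4 to 93.6%) and in 85.9% of the others (84.8 to 87.0%). Ly6c2 was found in 49.4% (45.6 to 53.2%) and 46.0% (44.5 to 47.6%) of them, and Cd44 in 16.2% (13.5 to 19.2%) and 14.8% (13.7 to 16.0%). No 90-base run of Ly6g transcripts occurs in Ly6a, Ly6c1 or Ly6c2 transcripts, but of its 912 runs of 30 bases, 14, 23 and 21 do. How reads were assigned within the Ly6 cluster is not given in the sources used here, and its part in the Ly6g count was not tested.

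The GPI anchor is built by the PIG enzymes and attached by a transamidase with the subunit GPAA1. Of 27 such genes, 9 to 15 reached the level needed for a comparison. On activation 1 of 13 was past 2-fold, Gpaa1 (1.19), where 19.4% of all genes were in either direction, and the list median was 0.06 against -0.11 for all genes tested. Gpaa1 was lower on day 5 without cytokine (-1.05) and consistently lower from day 3 to day 5 (-1.01). Of the 10 to 12 genes tested, none was consistent in a comparison of doses or of cytokines. There 1.05 to 6.99% of all genes were, so a list this short could hold none.

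Of 20 ligands, partners and proteases of CD44, 18 were in the tables. Spp1 encodes osteopontin, a secreted ligand of CD44. For the doses of IL-2 and IL-2v, 11 genes of the list were tested, with medians of -0.22 and -0.13 against 0.03 and 0.10 for all genes. Spp1 entered both comparisons only through the day 10 libraries with 50 IU/mL, so its calls at that dose are not read further. It was at 2064 CPM with 50 IU/mL IL-2 and 501.5 CPM with 50 IU/mL IL-2v on day 10, and at 15.3 CPM with 5 IU/mL IL-2 on that day. It was at most 11.5 CPM in the other 18 libraries. Hmmr, another hyaluronan receptor that is made by dividing cells, was higher on activation by 4.56. From day 3 to day 5 without cytokine Hmmr was lower, at -2.88, and Cd74 was higher by 1.79. Of the CD7 ligands on the list, only Lgals1, which encodes galectin-1, reached 20 CPM. Lgals1 was at 204 CPM in naive cells and 1557 CPM on day 3 without cytokine, a difference of 2.93, and was lower on day 5 without cytokine, at -1.61. On day 10 it ranged from 119.8 CPM with 5 IU/mL IL-15 to 3303 CPM with 50 IU/mL IL-2.

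Genes induced by interferons were followed with a list of 33, of which Ly6a, Ly6c2 and Ly6e are not part. At 50 against 5 IU/mL IL-2, 13 of 23 tested genes were consistently lower, where 2.70% of all genes were. None was consistently higher, where 252 of 5879 genes were. The list median was -1.05 against 0.03 for all genes. Ifi203 had the lowest median, at -2.33, and Isg15 the highest, at 1.22, with signs that differed between days. In the same pairs Ly6c2 and Ly6e were lower on all 3 days, and Ly6a on 2. With IL-2v 2 of 24 were lower at the higher dose, where 0.626% of all genes were (list median -0.19 against 0.10), and with IL-15 none of 22 was consistent (-0.13). Against cells without cytokine on day 5, a control library that these values share, the list median was -1.62 with 50 IU/mL IL-2 (0.11 for all genes), -1.51 for the higher dose of IL-2v (0.30) and -0.72 for its lower dose (0.08). It was also below that of all genes with 50 IU/mL IL-15 (-0.57 against 0.0071), 5 IU/mL IL-2 (-0.52 against -0.13) and 5 IU/mL IL-15 (-0.43 against -0.08). On activation 4 of 27 were past 2-fold upward, where 11.1% of all genes were, and 9 downward, where 8.31% were. They ran from Iigp1 (2.46) to Slfn5 (-4.08), with a list median of -0.24 against -0.11 for all genes. From day 3 to day 5 without cytokine 10 of 24 were higher, where 3.61% of all genes were, and none lower, where 9.47% were, with a list median of 0.88 against -0.0016 for all genes, led by Rtp4 (2.88). In that comparison Ly6c2 was higher by 1.58. The list summed to 4431 CPM on day 5 without cytokine, where Ly6e also was highest, and to 1132 CPM on day 3 with 50 IU/mL IL-2, where Ly6c2 was lowest. Other extremes lay elsewhere. Ly6e was lowest with 50 IU/mL IL-15, Ly6c2 highest with 50 IU/mL IL-2v and Ly6a highest with 50 IU/mL IL-2, all on day 10. On activation Ly6a was higher by 2.67, where the list median was -0.24. Interferon gamma, its receptor chains, the type I receptor chains and their kinases made a list of 8. On activation 7 of them were tested, with Ifngr1 higher (1.89) and Ifngr2 lower (-1.34), where 11.1 and 8.31% of all genes were. From day 3 to day 5 without cytokine 6 were tested, and Jak1 was higher (1.01), where 3.61% of all genes were. In comparisons of doses, cytokines or cytokine-treated days 6 of the 8 were tested, and none was consistent. There 1.05 to 6.99% of all genes were, so a list this short could hold none.

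Of 24 other surface markers of memory and homing, 20 or 21 were tested in each comparison. At 50 against 5 IU/mL IL-2 6 of 20 were lower, where 2.70% of all genes were, and none higher, where 252 of 5879 were. The lowest was Cxcr3, a chemokine receptor, at -3.58 (list median -0.46 against 0.03 for all genes). With IL-2v 3 of 20 were lower, where 0.626% of all genes were, down to S1pr1, the receptor used to leave lymph nodes, at -2.55 (list median -0.26 against 0.10). Il7r, the IL-7 receptor alpha chain, was consistently lower with IL-2v than with IL-2 (-2.01). Of 14 transcriptional regulators, 11 were tested for IL-2 and IL-2v doses. With IL-2, 1 was consistently higher at 50 IU/mL and 4 lower, where 252 of 5879 genes were higher and 2.70% lower. The list median was -0.23 against 0.03. With IL-2v 2 were higher and 4 lower, where 141 of 5913 genes were higher and 0.626% lower. The list median was -0.45 against 0.10. Prdm1, which encodes Blimp-1, was consistently higher at 50 IU/mL with IL-2 (1.68) and IL-2v (1.65). Id3 was lower with IL-2 (-2.94) and Klf2 with IL-2v (-1.94). With IL-15, where none of the 5 tested members was consistent, 10 regulators were tested. Eomes was higher at 50 IU/mL (1.02) and Id3 lower (-1.34), where 1.05% of 5523 genes differed either way. The regulators had a median of -0.07 against 0.02 for all genes.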

How the data were processed

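The authors deposited 1 table of raw UMI counts per library, whole numbers for 17516 gene symbols by cell barcode. Cell Ranger, Seurat (4.0.1 and 3.0.2) and the build mm10 are named, with no roles, per the submitters' processing notes. Cells under 1000 UMIs or 500 genes, or above 10% mitochondrial UMIs, were left out (2 cells in all). No doublet caller was run. Counts were summed per library and scaled to CPM, and compared as differences in log2(CPM + 1). A gene entered a comparison at 20 CPM, on average over its pairs, in either arm. With 1 library per condition there was no model and no p-value. The code that makes the calls was tested on simulated data with known changes, which does not test the calls themselves. Cells were thinned to 2000 UMIs for shares, with exact Clopper-Pearson 95% intervals. The genes and lists were chosen with earlier results of these data known. Named genes are the 6 members, the highest and lowest gene of a list by median difference, and the 3 most correlated genes, some of which are not reported here. Levels of Ly6g, Spp1 and Lgals1 by library and the split by Ccl5 and Ly6g were added after their values were seen. Positions come from GENCODE vM21. The sums used Python 3.11.15 with numpy 2.4.6, and edgeR 4.0.16 gave the TMM factors of an alternative.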

Additional observations from a re-analysis of the deposited data

Results flagged for a closer look

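The effect of dose on Ly6a went in opposite directions in 2 cytokines. With IL-2v, the 50 IU/mL library held more Ly6a than the 5 IU/mL library on each of the 3 days, by 0.03, 0.26 and 0.89 in log2(CPM + 1). With IL-15 it was lower on all 3 days, at -0.14, -0.16 and -1.64. The medians differ by 0.427, and the difference between the cytokines was not tested, since each condition had 1 library. The smallest IL-2v difference, on day 3, turned negative with TMM scaling and with totals without ribosomal protein and mitochondrial genes, so the IL-2v direction rests on days 5 and 10. TMM scaling also makes the IL-2v difference of day 5 smaller, with factors of 1.18 at 50 and 1.04 at 5 IU/mL.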

How the results depend on the processing

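Each count of members called was computed under 11 to 14 settings, the main one included. Of 124 counts under the other settings, 103 were within 1.5 times the reported one. Of 1464 recomputed differences of single genes, 1428 kept their call or their lack of one, 19 lost a call and 17 gained one. Most differences had no call to lose, those of Ly6c1 among them, so the 1428 do not measure how stable the calls are. None that was called turned its sign. Where a count moved, the cause was not tested apart from settings that leave out a day, a cytokine or cells. For activation, 1 member was called with a pseudocount of 10 CPM in place of 2. Between IL-2v and IL-2, 1 in place of 0 was called without cells above 2 times the median UMIs, without cells with markers of other lineages, with TMM scaling, with the mean CPM of single cells and without day 10. Between IL-15 and IL-2 it was 1 in place of 0 without day 10, and between IL-2v and IL-15 2 in place of 1 without day 3. For the IL-2 dose, 1 in place of 2 was called in cells without a UMI of Mki67 or Top2a, with TMM scaling, with the mean CPM of single cells, without day 3 and without day 5. For the IL-15 dose it was 1 in place of 0 without day 3. From day 3 to day 5, 1 in place of 2 was called without cells above 2 times the median UMIs, without cells with markers of other lineages and with the mean CPM of single cells. It was 0 in cells without a UMI of Mki67 or Top2a, with a pseudocount of 10 CPM and without IL-2. From day 5 to day 10 it was 1 in place of 0 without IL-15. TMM scaling moved the median of all genes by 0.11 (day 5 against day 3 without cytokine), -0.12 (IL-2v dose), 0.10 (day 5 against day 3) and 0.14 (day 10 against day 5). It also moved the higher share of all called genes from 79.2 to 59.0% (IL-2v against IL-2), from 80.9 to 62.1% (IL-2v against IL-15), from 79.2 to 63.9% (IL-2v dose), from 27.2 to 42.9% (day 5 against day 3) and from 27.6 to 38.0% (the same days without cytokine). Totals without ribosomal protein and mitochondrial genes moved that share from 22.4 to 33.8% (IL-15 against IL-2), from 80.9 to 63.3% (IL-2v against IL-15) and from 61.3 to 50.6% (IL-2 dose). Without thinning the median share over libraries was 22.7% for Cd44, 82.2% for Ly6a, 42.4% for Ly6c2, 90.2% for Ly6e and 24.3% for Cd7, and with thinning to 1000 UMIs 5.67, 45.5, 21.6, 48.9 and 8.03%. No paired analysis was possible because each condition had 1 library and no replicate numbers to pair. The pairs used match conditions by day, dose or cytokine and are not replicates. Ly6c1 entered no comparison because its level stayed under 20 CPM, and its counts fell to 15 UMIs in the lowest library.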

Other observations

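Within cells, several pairs of members were found together at close to the product of their separate shares. On day 10 with 50 IU/mL IL-2v, Ly6a and Ly6c2 both had a UMI in 46.6% of thinned cells, against 45.9% from the product of their shares. On day 5 without cytokine the values were 28.1 and 27.6%. Cd44 had a UMI in 15.8% of Ly6c2 cells and 16.8% of the other cells on day 10 with 50 IU/mL IL-2v. In all 21 libraries Ly6a had a UMI in a larger share of Ly6e cells than of other cells, from 48.9 against 47.0% on day 5 with 5 IU/mL IL-2v to 67.4 against 56.3% on day 5 with 5 IU/mL IL-15. For Ly6c2 the shares could be nearly equal, at 69.97 and 69.74% on day 10 with 50 IU/mL IL-2v. Naive cells departed from the product of shares, with Ly6a in 59.1% of Ly6c1 cells and 13.3% of the others, Ly6a in 18.3% of Ly6e cells and 8.31% of the others, and Cd44 in 8.20% of Ly6c2 cells and 3.76% of the others. Cd7 and Ly6c2 parted on day 10 with 50 IU/mL IL-2, where Ly6c2 had a UMI in 13.2% of the 53 cells with a Cd7 UMI and in 46.9% of the other cells.

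Ly6c2 UMIs were spread unevenly over cells. In thinned cells the variance of Ly6c2 UMIs was 3.16 times the mean on day 5 without cytokine, 2.54 times in naive cells and 2.13 times on day 10 with 50 IU/mL IL-2v. For Ly6a it was 1.72, 2.14 and 1.37 times in the same libraries, where counting noise alone gives a value of 1.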
